A study of Rattus norvegicus with 24 samples.

Results

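The interleukins are a large group of secreted signalling proteins, and the genes of these ligands and of their receptors were followed here in the dorsal root ganglia (DRG) of rats. Members were taken by name: every entry of the expression table whose symbol begins with Il followed directly by a digit was counted as one. The rule gave 72 of 17811 entries, of which 33 encode ligands, 36 encode receptor chains (decoy and soluble forms included) and 3 encode antagonists or binding proteins. Of the 72 members, 43 were above 0 in all 24 rats in FPKM, a level that scales the mapped fragments of a gene to its transcript length and to the size of the library, as were 13024 entries of the whole table. Related genes with other symbols, such as the receptor genes Osmr and Csf1r, were not members.

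All 24 animals were female Sprague-Dawley rats, operated at 12 weeks of age and 20 weeks old by their labels. The OVX-TPTD rats (n = 8) had both ovaries removed (OVX) and received teriparatide (TPTD), an active fragment of human parathyroid hormone, in a dose of 30 µg/kg that was given 3 times weekly over 4 weeks, beginning 4 weeks after surgery. The OVX-vehicle rats (n = 8) were ovariectomized and received vehicle, and the Sham-vehicle rats (n = 8) had a sham operation and vehicle. No group combined the sham operation with TPTD, so the drug was set against vehicle only in ovariectomized rats. RNA came from the whole L4 and L5 ganglia, 1 library per rat, so every value below is an average over neurons, glia, vessels and resident immune cells. The depth was 15573490 to 19069926 estimated counts per rat, and the 72 members together held 12117 to 16321 of these, or 0.0778% to 0.0886% of a library. A gene with 3 counts, taken as the limit that a count of 0 allows, would stand at up to 0.193 CPM, a count scaled to the library size.

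The DRG hold the cell bodies of the sensory neurons that report heat, touch, itch and pain from the body, together with satellite glial cells and macrophages. Interleukins act through receptors that are mostly built from a ligand-specific chain and a chain shared by a family: gp130 (Il6st) for the interleukin-6 family, the common gamma chain (Il2rg) for the interleukin-2 family, and the accessory protein Il1rap for the interleukin-1 family. The first 2 kinds signal through JAK kinases and STAT factors, and the interleukin-1 and interleukin-17 receptors through adaptor proteins to NF-κB. In sensory ganglia, interleukin-1β and the interleukin-6 family are known to make nociceptors more excitable, and interleukin-31 is known as an itch signal to sensory neurons. The tissue label was met by the data, since all 10 sensory neuron marker genes in the table were above 0 in all 24 rats and summed to 12686 to 15433 FPKM. Macrophage markers were also present in all rats (14 of 14 genes), T cell markers were low (sum 2.46 to 6.81 FPKM, 6 of 11 genes above 0 in all rats), and no B cell marker (of 5) or NK cell marker (of 6) was above 0 in all rats.

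A few rats stood apart. OVX-vehicle replicate 1 carries OVX in its title but Sham in its surgery label, and it was kept with the OVX-vehicle rats after its title. Sham-vehicle replicate 3 had a summed level of 863 FPKM over the 14 macrophage markers, against 279 to 427 FPKM in the other 7 Sham-vehicle rats, and it was the highest of all 24 rats for 11 of the 43 members. OVX-TPTD replicates 6 and 7 had summed levels of 299 and 322 FPKM over 23 interferon-induced genes, against 135 to 203 FPKM in the other 6 OVX-TPTD rats. Where one of these rats moves a result, the value without it is given beside it.

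The promoters of 4 members named in the comparisons below are printed: Il18bp, Il2rg and Il11 stood among the smallest p-values of OVX-TPTD against OVX-vehicle, and Il18 in both comparisons with Sham-vehicle. Il33 and Il18r1, which also had small p-values in OVX-TPTD against Sham-vehicle, are not printed. Each runs 5′ to 3′ over 300 bases, from 250 bases before the annotated start to 50 after it, in RefSeq's GRCr8 assembly of the rat genome, and capitals mark a motif match. The windows are chr1:165786906-165787205 on the minus strand for Il18bp, chrX:70438951-70439250 on the minus strand for Il2rg, chr8:59801822-59802121 on the plus strand for Il18 and chr1:78098372-78098671 on the plus strand for Il11.
Il18bp: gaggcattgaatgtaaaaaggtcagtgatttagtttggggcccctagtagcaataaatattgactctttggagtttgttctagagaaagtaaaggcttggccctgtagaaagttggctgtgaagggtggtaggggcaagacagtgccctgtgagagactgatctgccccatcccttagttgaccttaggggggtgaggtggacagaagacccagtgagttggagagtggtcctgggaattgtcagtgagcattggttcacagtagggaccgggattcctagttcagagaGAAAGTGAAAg
Il2rg: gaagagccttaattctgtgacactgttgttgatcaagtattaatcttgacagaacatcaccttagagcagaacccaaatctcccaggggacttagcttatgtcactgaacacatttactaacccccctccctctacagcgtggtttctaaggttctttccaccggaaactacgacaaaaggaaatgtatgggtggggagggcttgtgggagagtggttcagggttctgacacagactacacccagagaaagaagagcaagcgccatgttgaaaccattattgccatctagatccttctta
Il18: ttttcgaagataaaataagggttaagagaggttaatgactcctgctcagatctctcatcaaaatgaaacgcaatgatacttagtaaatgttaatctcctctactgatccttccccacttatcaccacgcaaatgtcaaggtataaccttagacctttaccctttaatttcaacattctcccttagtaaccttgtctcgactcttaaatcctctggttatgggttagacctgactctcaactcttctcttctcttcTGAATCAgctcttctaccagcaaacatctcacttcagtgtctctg
Il11: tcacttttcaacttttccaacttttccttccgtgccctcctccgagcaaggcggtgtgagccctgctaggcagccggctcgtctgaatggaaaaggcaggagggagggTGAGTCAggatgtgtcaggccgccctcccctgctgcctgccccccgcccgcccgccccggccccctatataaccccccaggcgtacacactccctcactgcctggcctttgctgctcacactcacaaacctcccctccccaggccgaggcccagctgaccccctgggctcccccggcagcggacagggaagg
The capitals in Il18bp are a match to the core of the interferon-stimulated response element (GAAA, any 2 bases and GAAA), 39 to 48 bases after the start. Those in Il18 and Il11 are matches to the AP-1 letters TGANTCA, 5 to 11 bases after the start of Il18 and 142 to 136 bases before that of Il11. The Il2rg window held none of the 5 motifs searched on both strands, which besides these were the GAS element TTCNNNGAA, the NF-κB letters (GGG, any 2 bases and TTTCC) and the PU.1 letters GAGGAAGT. Of 33469 rat promoters of this length, 3.92% held the interferon element core, 7.33% the AP-1 letters, 8.87% the GAS letters, 1.53% the NF-κB letters and 2.42% the PU.1 letters. RefSeq promoters were matched by symbol for 56 of the 72 members, and the interferon element core was found in 6 of them (Il12rb1, Il18bp, Il1rap, Il36b, Il4 and Il6st). Of the same 56 members, 6 held the AP-1 letters, 6 the GAS letters, 4 the NF-κB letters and 1 the PU.1 letters. A match describes letters in a window and is not a measured binding site.

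Receptor chains were far more often detected than ligands: 30 of 36 receptor genes, 11 of 33 ligand genes and 2 of 3 antagonist or binding protein genes were above 0 FPKM in all 24 rats. The median of the mean levels was 0.766 FPKM over the receptor chains and 0.0722 FPKM over the ligands, and 24 members reached a mean of 1 FPKM (16 receptor chains, 7 ligands and Il18bp). The 8 highest members held 76.3% of the summed level of all 72. They were a mixed set of 5 receptor chains (Il6st, Il11ra1, Il13ra1, Il31ra and Il10rb), and the ligands Il33, Il34 and Il16.

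**Figure D1:**
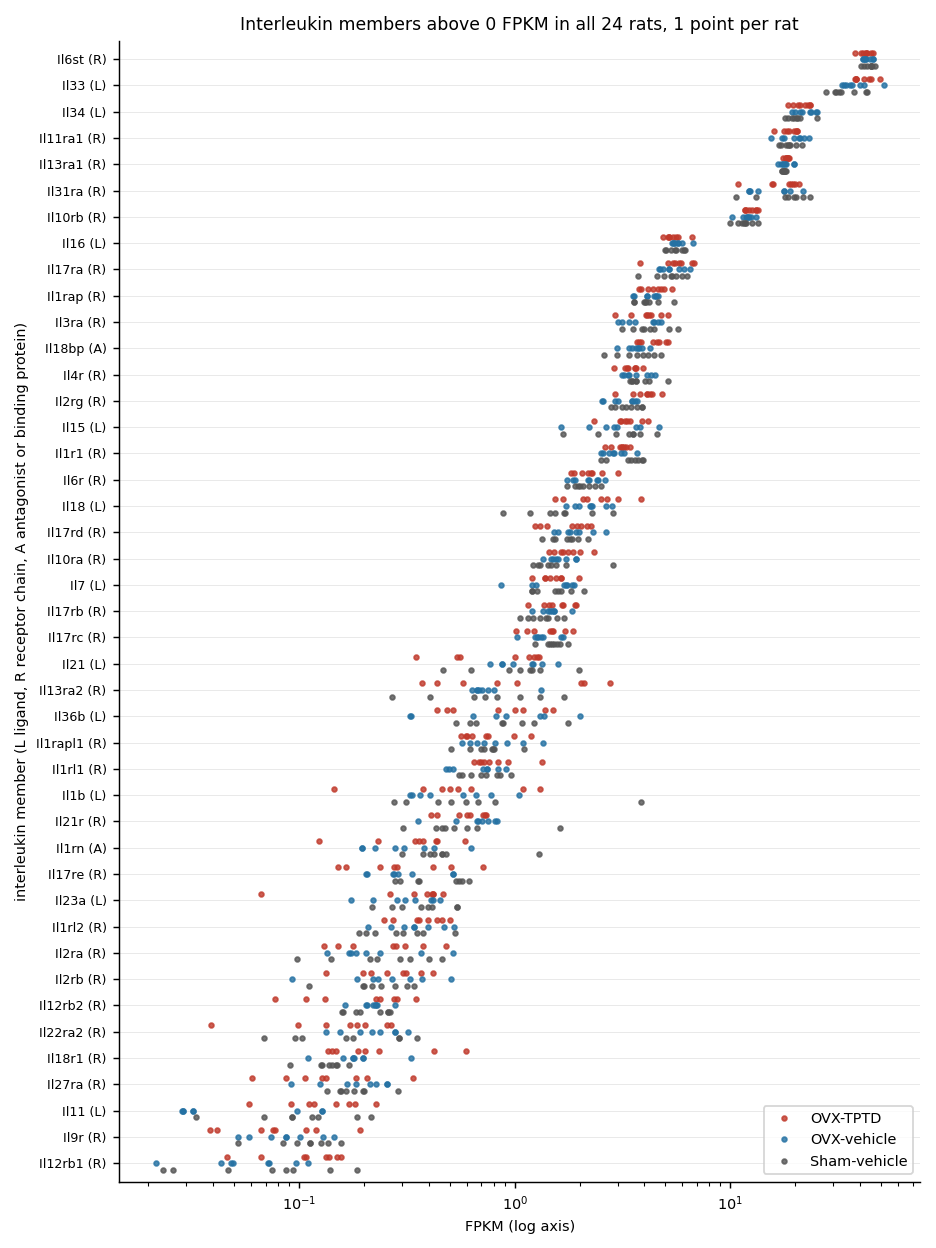
Level of each of the 43 members above 0 FPKM in all 24 rats, as FPKM on a log axis, with 1 point per rat coloured by group (OVX-TPTD, OVX-vehicle, Sham-vehicle) and members ordered by their mean. The letter beside each name gives its role (L ligand, R receptor chain, A antagonist or binding protein), and the members run from Il6st at a mean of 43.2 FPKM to Il12rb1 at 0.0873 FPKM, with the 3 groups intermingled for nearly every gene.

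Il6st (rn6 chr2:44290075-44319427, plus strand), the shared gp130 chain of the interleukin-6 family, had the highest mean level, 43.2 FPKM, with 5239 to 7170.5 counts per rat. Its levels (lowest, median and highest) were 37.8, 42.4 and 46.0 FPKM in OVX-TPTD rats, 41.1, 42.5 and 46.1 FPKM in OVX-vehicle rats and 40.6, 44.8 and 47.1 FPKM in Sham-vehicle rats. The 3 ranges lay over each other, and the spread between rats was narrow. The other chains of the family were Il11ra1 (chr5:58151985-58159070, plus strand; mean 19.1 FPKM), which binds interleukin-11, Il31ra (17.2 FPKM), which binds interleukin-31, Il6r (2.18 FPKM), which binds interleukin-6, and Il27ra (0.177 FPKM), which binds interleukin-27. All 24 counts of Il11ra1 were fractional, and the entry overlaps that of Ccl27 on the other strand. Whether its reads were shared with that entry or with other positions in the genome is not given. The value of Il11ra1 is therefore less certain than the others. Against these receptors the ligands of the family were low, Il11 with a mean of 0.106 FPKM and Il6 with 0.0867 FPKM, detected in 17 of 24 rats.

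Il33 (chr1:248132090-248147030, plus strand), a nuclear cytokine of the interleukin-1 family released from damaged cells, was the highest ligand with a mean of 38.2 FPKM, while the specific chain of its receptor, Il1rl1 (ST2), averaged 0.746 FPKM and the accessory chain Il1rap (chr11:77463953-77593198, minus strand) 4.29 FPKM. Il34 (chr19:40890544-40904364, plus strand), a ligand of the macrophage receptor Csf1r, came next among ligands at 21.4 FPKM. Csf1r itself, which is no member, averaged 16.4 ± 2.72 FPKM in OVX-TPTD rats, 14.98 ± 1.23 FPKM in OVX-vehicle rats and 14.5 ± 2.44 FPKM in Sham-vehicle rats (SD, n = 8 each). Il16 (chr1:145781928-145870912, minus strand), a chemoattractant made from a larger precursor, averaged 5.60 FPKM, and Il15 and Il18 averaged 3.21 and 2.12 FPKM.

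Among the receptor chains grouped here with the gamma chain family the highest was Il13ra1 (chrX:122724081-122783799, plus strand, mean 18 FPKM), a receptor chain for interleukin-13. Il4r (3.68 FPKM) and Il2rg (3.51 FPKM) followed. Il13ra1 pairs with Il4r and not with Il2rg, so its place in this family is one of grouping only. The ligands of that pair, Il4 and Il13, were at 0 FPKM in all 24 rats. Il10rb (chr11:31560530-31582457, plus strand; 12 FPKM) led the interleukin-10 family, Il17ra (chr4:152995865-153018394, plus strand; 5.41 FPKM) the interleukin-17 receptors and Il3ra (chr12:18534763-18540166, minus strand; 4.10 FPKM) the common beta chain family. All 5 interleukin-17 receptor chains were above 0 in all rats, and none of the 5 interleukin-17 ligands was. The highest of these ligands, Il25, averaged 0.53 FPKM and was listed at 0 in 1 OVX-vehicle rat. Il23a, a subunit of interleukin-23, was the highest of the interleukin-12 family at 0.352 FPKM.

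The other 29 members were at 0 in some or all rats: 25 were above 0 in 1 to 23 rats, and Il4, Il13, Il36a and Il36rn in none. These included ligands of T cells and other lymphocytes, such as Il2 (above 0 in 6 rats), Il5 (3 rats), Il22 (3 rats) and Il17a (1 rat), as well as Il10 (1 rat). A level of 0 at this depth means that the gene was not detectable, not that it was absent.

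Across groups the members differed little. By edgeR's quasi-likelihood test, fitted to all 24 rats over 12645 entries with p-values adjusted by the Benjamini-Hochberg method over all of them, 38 members had counts high enough to be tested, and none reached an adjusted p of 0.05 in any of the 3 comparisons. The smallest adjusted p of a member by edgeR was 0.995 in OVX-TPTD against OVX-vehicle, 0.264 in OVX-TPTD against Sham-vehicle and 0.864 in OVX-vehicle against Sham-vehicle. Of all entries tested, 0%, 0.0316% and 0.00791% passed that limit in the same 3 comparisons. The other 5 of the 43 detected members were tested with no filter on low counts and by exact permutation only.

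At an unadjusted edgeR p of 0.05, 2 of 38 members passed in OVX-TPTD against OVX-vehicle, both higher, where 3.65% of all entries passed (1.95% higher and 1.7% lower). In OVX-TPTD against Sham-vehicle, 5 members passed, 4 higher and 1 lower, where 15.1% of all entries passed (7.08% higher and 8.02% lower). In OVX-vehicle against Sham-vehicle, 2 members passed, both lower, where 4.82% of all entries passed (2.36% higher and 2.46% lower). A two-sided exact permutation test on group means of log2 FPKM, run on the 43 detected members over all divisions of the 16 rats, passed 4, 5 and 3 members in these comparisons, where 3.81%, 13.9% and 5.12% of all entries passed, and none after adjustment. In both comparisons with Sham-vehicle these counts are close to the share of all entries, and in no comparison were the levels of a member fully separate between the groups, as they were for 0.00768%, 0.0921% and 0.0154% of all entries. Without Sham-vehicle replicate 3, 39 members were tested by edgeR. In OVX-vehicle against Sham-vehicle, 3 of them then passed unadjusted as higher and 1 as lower, where 7.39% of all entries passed. In OVX-TPTD against Sham-vehicle it was 5 higher and 0 lower, where 19.98% of all entries passed.

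With all rats kept, the direction was nearly even in both comparisons with Sham-vehicle, and leaned to higher in the other. In OVX-TPTD against OVX-vehicle, 25 of 38 members were higher and 13 lower, with a median log2 difference of 0.07 for the members and −0.00 for all entries. The median was 0.01 for the members in OVX-TPTD against Sham-vehicle (20 higher, 18 lower) and 0.00 in OVX-vehicle against Sham-vehicle (19 higher, 19 lower), with 0.00 for all entries in both. Without Sham-vehicle replicate 3, these comparisons gave 24 higher and 15 lower, and 22 higher and 17 lower, each with a median of 0.03. For 16 members the 95% interval of the OVX-vehicle difference from Sham-vehicle reached less than 0.25 to either side of its estimate, and for the low members it was much wider.

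**Figure D2:**
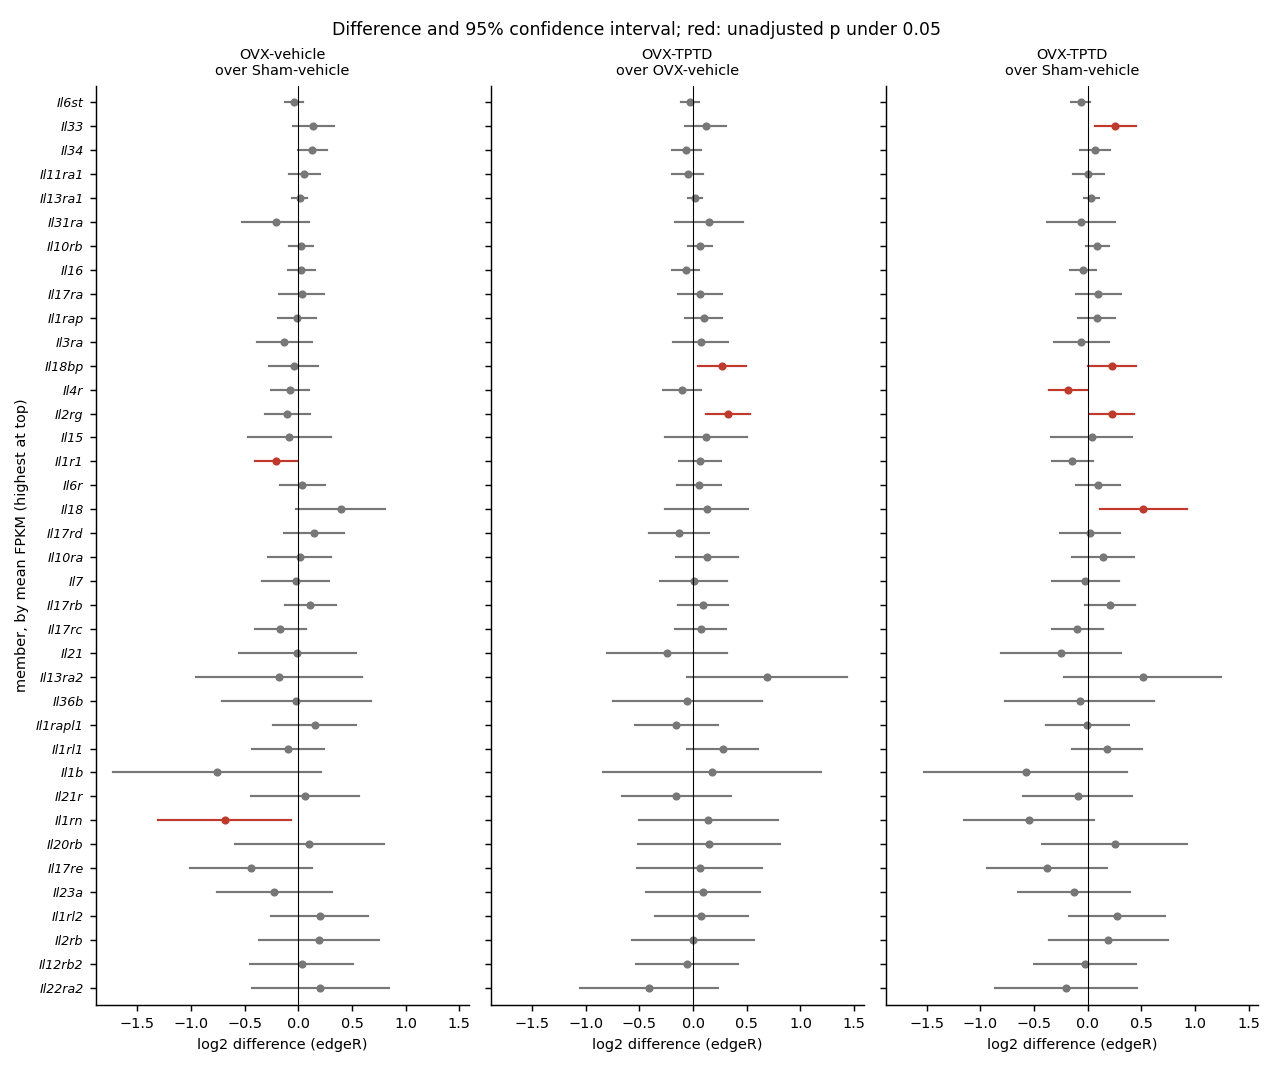
Log2 difference of the 38 members tested by edgeR, with 95% intervals as bars, in 3 panels (OVX-vehicle over Sham-vehicle, OVX-TPTD over OVX-vehicle and OVX-TPTD over Sham-vehicle); red marks an unadjusted p under 0.05. Estimates run between −0.76 and 0.69 over the 3 panels, the intervals of nearly all members cross 0, and no member passed after adjustment.

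The comparison of OVX-TPTD with OVX-vehicle asks what the drug changed in ovariectomized rats. Among the 38 members that passed the filter on low counts, Il2rg and Il18bp had the smallest edgeR p-values. Il2rg (chrX:71165378-71169038, minus strand), the common gamma chain that the receptors for interleukins 2, 4, 7, 9, 15 and 21 share, had levels of 2.91, 4.11 and 4.80 FPKM (lowest, median and highest) in OVX-TPTD rats and 2.54, 3.25 and 3.71 FPKM in OVX-vehicle rats. Of the 8 OVX-TPTD rats, 7 were above the OVX-vehicle median, and the ranges overlapped. The log2 difference was 0.33 (SE 0.101, 95% interval 0.12 to 0.53; unadjusted p = 0.00317, adjusted p = 0.995 by edgeR) and the exact permutation p was 0.0126. The unadjusted edgeR p stayed between 0.000475 and 0.00970 when each rat was left out in turn, and it was 0.00627 without OVX-vehicle replicate 1. In bulk tissue, more cells of a type and more RNA per cell cannot be told apart.

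Il18bp (chr1:167091521-167093560, minus strand) encodes a secreted protein that binds interleukin-18 and keeps it from its receptor. It stood at 3.69, 4.49 and 5.17 FPKM in OVX-TPTD rats and at 2.98, 3.70 and 4.23 FPKM in OVX-vehicle rats, on 47 to 101 counts per rat over all groups. Again 7 of 8 OVX-TPTD rats were above the OVX-vehicle median and the ranges overlapped. The log2 difference was 0.27 (SE 0.109, 95% interval 0.05 to 0.49; unadjusted p = 0.0203, adjusted p = 0.995 by edgeR), with an exact permutation p of 0.00777. Without OVX-TPTD replicates 6 and 7, the rats with the highest interferon-induced genes, the difference was 0.21 and the unadjusted edgeR p 0.0811, whereas that of Il2rg was 0.38 with an unadjusted edgeR p of 0.000843.

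Il11 and Il12rb1 also passed the permutation test, but from very few reads. Il11 (chr1:72636959-72643255, plus strand), a gp130 cytokine, had 2 to 8 counts per OVX-TPTD rat, 1 to 4 per OVX-vehicle rat and 1 to 7 per Sham-vehicle rat. Its levels were 0.0587, 0.133 and 0.229 FPKM in OVX-TPTD rats, 0.0286, 0.0322 and 0.128 FPKM in OVX-vehicle rats and 0.0332, 0.104 and 0.217 FPKM in Sham-vehicle rats. All 8 OVX-TPTD rats were above the OVX-vehicle median, but the ranges still overlapped. The mean log2 FPKM differed by 1.36 between OVX-TPTD and OVX-vehicle (exact permutation p = 0.00901), and edgeR with no filter on low counts gave 1.12 (SE 0.389, unadjusted p = 0.00748, adjusted p = 0.973). Between OVX-vehicle and Sham-vehicle, edgeR with no filter gave −0.89 (SE 0.405, unadjusted p = 0.0359, adjusted p = 0.833), while the exact permutation p was 0.0550. A step of 1 count is a large part of each of these values.

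Il12rb1 (chr16:20371338-20383337, minus strand), the receptor chain that interleukins 12 and 23 share, had 2 to 7 counts in OVX-TPTD rats and 1 to 5 in OVX-vehicle rats. The levels were 0.0464, 0.121 and 0.156 FPKM in OVX-TPTD rats and 0.0216, 0.0608 and 0.110 FPKM in OVX-vehicle rats. With 7 of 8 OVX-TPTD rats above the OVX-vehicle median, the exact permutation p was 0.0266 for a difference of 0.86 in mean log2 FPKM, and p was 0.0736 in the same exact test without OVX-TPTD replicates 6 and 7.

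**Figure D3:**
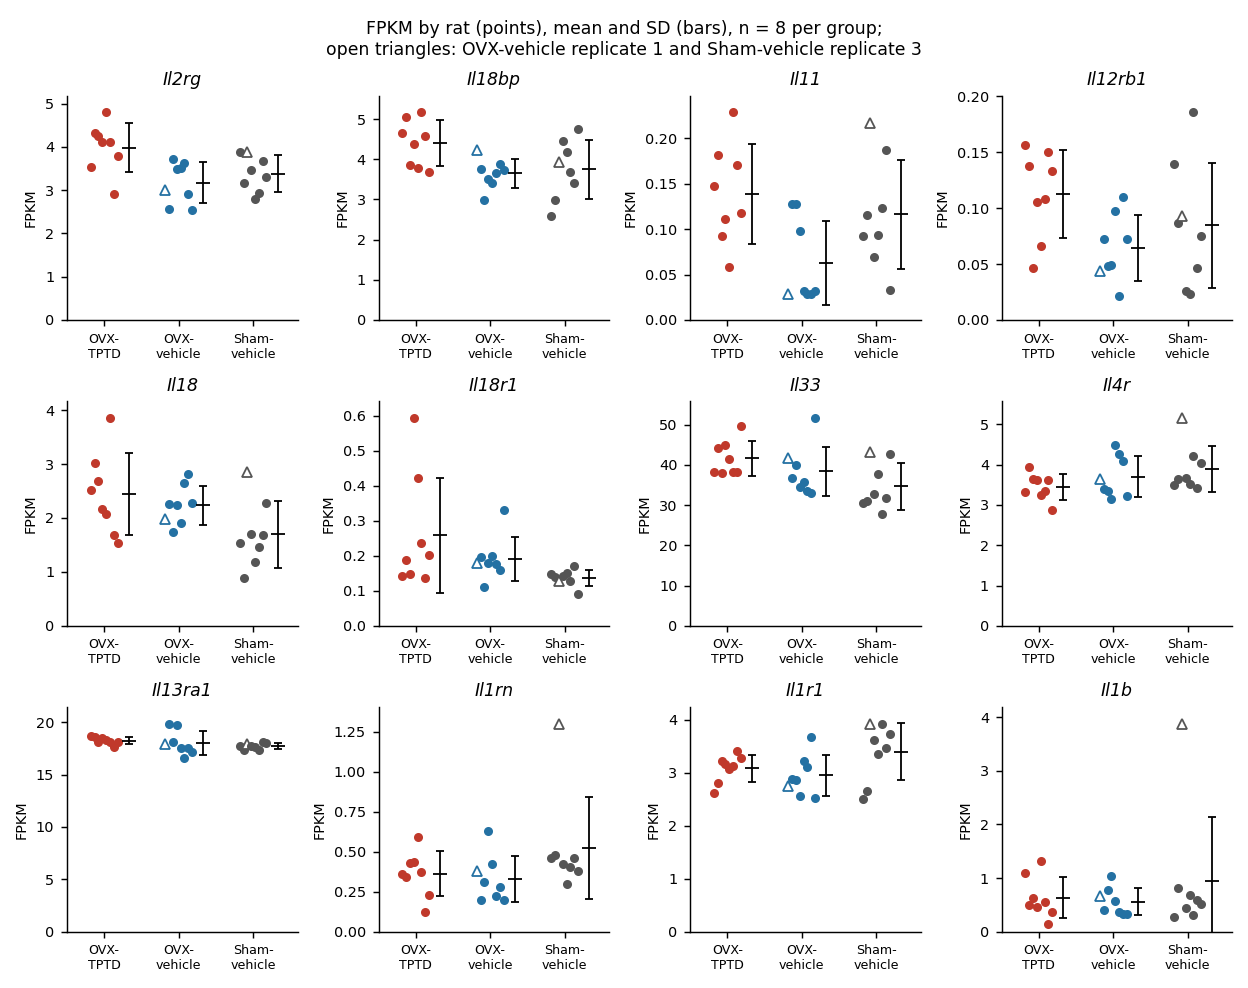
FPKM of 12 members in each rat, in the order OVX-TPTD, OVX-vehicle, Sham-vehicle, with the mean and SD of each group as lines; open triangles are OVX-vehicle replicate 1 and Sham-vehicle replicate 3. The panels of Il2rg and Il18bp show OVX-TPTD medians of 4.11 and 4.49 FPKM above OVX-vehicle medians of 3.25 and 3.70 FPKM, and in those of Il1b and Il1rn Sham-vehicle replicate 3 lies above all other rats.

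Interferon-induced genes were also counted in this comparison. Of 23 tested genes known to be induced by interferons, a list added after the values were seen, all 23 were higher in OVX-TPTD than in OVX-vehicle rats, 17 of them at an unadjusted edgeR p under 0.05, where 3.65% of all entries passed, and none after adjustment (smallest adjusted p = 0.995 by edgeR). Their median log2 difference was 0.50, against −0.00 for all entries. Without OVX-TPTD replicates 6 and 7, 19 of 23 were higher, 4 of them at an unadjusted edgeR p under 0.05 (8.23% of all entries), with a median of 0.24. Against Sham-vehicle, 22 of 23 were higher in OVX-TPTD rats, with a median of 0.57 and a smallest adjusted p of 0.113 by edgeR, and without those rats 18 of 23 with a median of 0.22, whereas between OVX-vehicle and Sham-vehicle 13 were higher and 10 lower with a median of 0.02. Of 14 macrophage markers, 13 were higher in OVX-TPTD than in OVX-vehicle rats with a median of 0.15, and none had an unadjusted edgeR p under 0.05. The summed macrophage level was 338, 422 and 620 FPKM (lowest, median and highest) in OVX-TPTD rats, 353, 408 and 472 FPKM in OVX-vehicle rats and 279, 328 and 863 FPKM in Sham-vehicle rats. All 5 tested T cell markers were lower in OVX-TPTD than in OVX-vehicle rats, with a median of −0.11. Without OVX-TPTD replicates 6 and 7, 3 of these T cell markers were higher and 2 lower, with a median of 0.01. The part of these genes in the values of Il2rg and Il18bp was not tested.

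**Figure D4:**
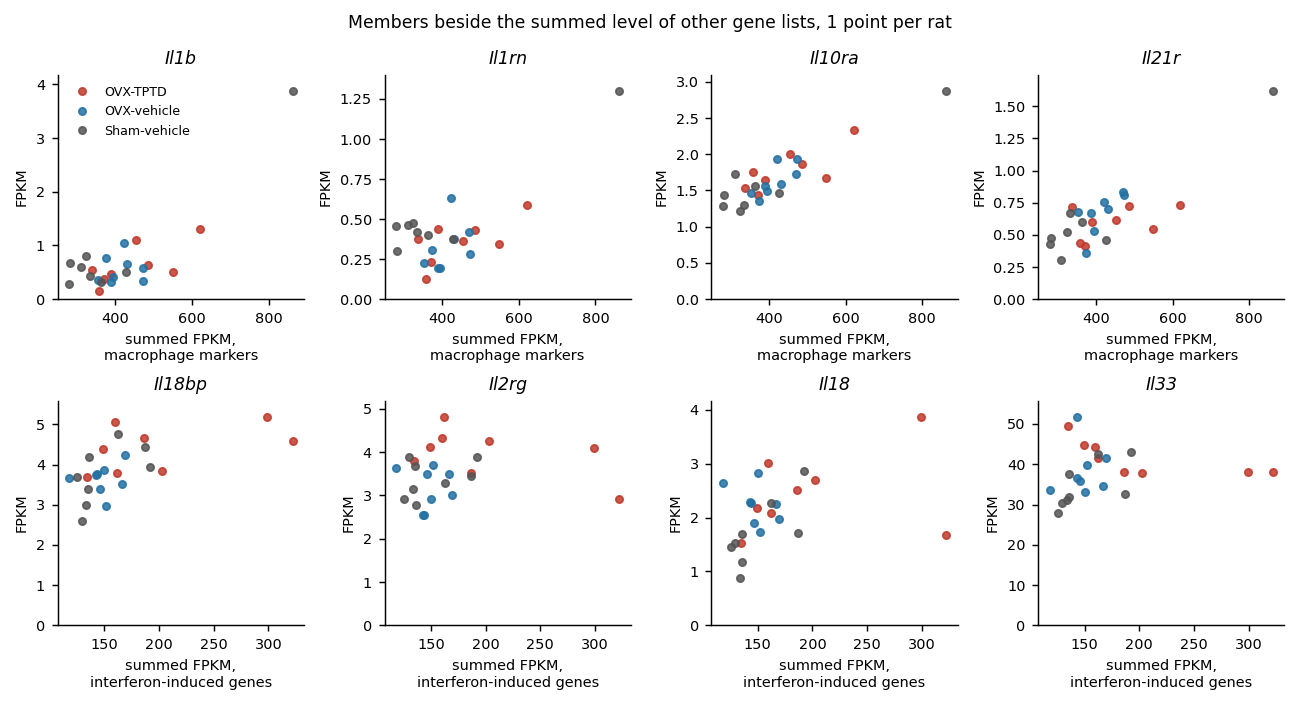
FPKM of Il1b, Il1rn, Il10ra and Il21r against the summed FPKM of 14 macrophage markers (top row) and of Il18bp, Il2rg, Il18 and Il33 against the summed FPKM of 23 interferon-induced genes (bottom row), with 1 point per rat coloured by group. In the top row Sham-vehicle replicate 3, at 863 FPKM of macrophage markers, is the farthest point in all 4 panels, and in the bottom row OVX-TPTD replicates 6 and 7 lie at 299 and 322 FPKM of interferon-induced genes.

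In OVX-TPTD against Sham-vehicle, surgery and drug differ together. Il33 had the smallest edgeR p of the members there. Its levels were 37.9, 39.8 and 49.6 FPKM in OVX-TPTD rats, 33.1, 36.2 and 51.6 FPKM in OVX-vehicle rats and 27.9, 32.2 and 43.1 FPKM in Sham-vehicle rats. All 8 OVX-TPTD rats were above the Sham-vehicle median, and the ranges overlapped through the highest Sham-vehicle rats. The log2 difference of OVX-TPTD from Sham-vehicle was 0.25 (SE 0.0926, 95% interval 0.06 to 0.44; unadjusted p = 0.0106, adjusted p = 0.264 by edgeR) and the exact permutation p was 0.0141. It was 0.14 (−0.05 to 0.33) for OVX-vehicle against Sham-vehicle and 0.12 (−0.07 to 0.31) for OVX-TPTD against OVX-vehicle, so the OVX-vehicle rats lay between the other groups. With each rat left out in turn, the unadjusted edgeR p against Sham-vehicle was 0.00269 to 0.0327.

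Il18 (chr8:55009666-55016286, plus strand), a cytokine of the interleukin-1 family that macrophages and epithelia hold as a precursor, had 13 to 57 counts per rat. Its levels were 1.53, 2.35 and 3.85 FPKM in OVX-TPTD rats, 1.74, 2.25 and 2.82 FPKM in OVX-vehicle rats and 0.885, 1.61 and 2.85 FPKM in Sham-vehicle rats. The Sham-vehicle rats held the lowest values, but their highest rat, replicate 3, was above all OVX-vehicle rats. The log2 difference was 0.52 for OVX-TPTD against Sham-vehicle (SE 0.197, 95% interval 0.11 to 0.92; unadjusted p = 0.0143, adjusted p = 0.269 by edgeR) and 0.39 for OVX-vehicle against Sham-vehicle (SE 0.200, 95% interval −0.02 to 0.80; unadjusted p = 0.0605 by edgeR), with exact permutation p-values of 0.0409 and 0.0361. Without Sham-vehicle replicate 3 these differences were 0.67 (unadjusted p = 0.00173) and 0.54 (unadjusted p = 0.00961) by edgeR. Without OVX-TPTD replicate 6 the unadjusted p of OVX-TPTD against Sham-vehicle was 0.0512. Between OVX-TPTD and OVX-vehicle the difference was 0.12 (95% interval −0.27 to 0.52). The macrophage markers also depended on that rat: 12 of 14 were higher in OVX-TPTD than in Sham-vehicle rats (median 0.16, 1 with an unadjusted edgeR p under 0.05), and without Sham-vehicle replicate 3 all 14 were (median 0.33, 11 with an unadjusted edgeR p under 0.05, where 19.98% of all entries passed). In OVX-vehicle against Sham-vehicle, 10 of 14 were higher (median 0.05), and without that rat all 14 (median 0.18). Their part in the values of Il18 was not tested.

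Il18r1 (chr9:47185303-47217403, plus strand), the chain that binds interleukin-18, was far lower than its ligand, with 7 to 31 counts in OVX-TPTD rats, 5 to 15 in OVX-vehicle rats and 4 to 8 in Sham-vehicle rats. Levels were 0.137, 0.195 and 0.594 FPKM in OVX-TPTD rats, 0.110, 0.179 and 0.331 FPKM in OVX-vehicle rats and 0.0913, 0.140 and 0.171 FPKM in Sham-vehicle rats. OVX-TPTD replicates 4 and 5 were the highest of all rats, at 0.594 and 0.423 FPKM, and the Sham-vehicle range was the lowest and narrowest. Its mean log2 FPKM differed from Sham-vehicle by 0.73 in OVX-TPTD rats (exact permutation p = 0.0101) and by 0.44 in OVX-vehicle rats (exact permutation p = 0.0205), and both p-values stayed under 0.05 with each rat left out in turn. With no filter on low counts, edgeR gave 0.90 for OVX-TPTD against Sham-vehicle (SE 0.295, unadjusted p = 0.00493, adjusted p = 0.284). For Il18bp the OVX-TPTD difference from Sham-vehicle was 0.22 (unadjusted p = 0.0488, adjusted p = 0.330 by edgeR; exact permutation p = 0.0674). Its unadjusted p by edgeR, DESeq2 or limma stayed under 0.05 in 4 alternative fits and lost it in 7, leave-one-out fits aside. Ligand, receptor chain and binding protein all had estimates above 0 in that comparison, where 20 of the 38 members tested by edgeR were higher.

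Il2rg was at 2.79, 3.38 and 3.89 FPKM in Sham-vehicle rats, and the OVX-TPTD difference from them was 0.22 (SE 0.10, 95% interval 0.02 to 0.43; unadjusted p = 0.0352, adjusted p = 0.309 by edgeR), with an exact permutation p of 0.0409. Leaving out each rat in turn gave unadjusted edgeR p-values of 0.00751 to 0.0900, over 0.05 in 9 of 16 cases. OVX-vehicle against Sham-vehicle gave −0.10 (95% interval −0.31 to 0.11).

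Il4r (chr1:196942367-196967221, plus strand), the receptor chain that interleukins 4 and 13 share, was the one member with an unadjusted edgeR p under 0.05 that was lower in OVX-TPTD than in Sham-vehicle rats. Its levels were 2.88, 3.48 and 3.93 FPKM in OVX-TPTD rats, 3.16, 3.52 and 4.48 FPKM in OVX-vehicle rats and 3.42, 3.66 and 5.15 FPKM in Sham-vehicle rats. Only 1 of 8 OVX-TPTD rats was above the Sham-vehicle median. The log2 difference was −0.18 (SE 0.0866, 95% interval −0.36 to −0.01; unadjusted p = 0.0424, adjusted p = 0.320 by edgeR), and without Sham-vehicle replicate 3, the highest rat, it was −0.12 with an unadjusted edgeR p of 0.143. Its partner Il13ra1 was the steadiest member, at 17.6, 18.2 and 18.7 FPKM in OVX-TPTD rats, 16.6, 17.7 and 19.8 FPKM in OVX-vehicle rats and 17.3, 17.8 and 18.1 FPKM in Sham-vehicle rats. Its mean log2 FPKM in OVX-TPTD rats was 0.04 above that of Sham-vehicle rats (exact permutation p = 0.00839), while edgeR gave 0.03 with a 95% interval of −0.04 to 0.10 and an unadjusted p of 0.367. A difference of this size is below 1 FPKM on a level of 18 FPKM.

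OVX-vehicle against Sham-vehicle asks what the loss of the ovaries changed. The members below 0 at an unadjusted p of 0.05 were both of the interleukin-1 system. Il1rn (chr3:1463208-1468624, plus strand), which encodes the interleukin-1 receptor antagonist, was at 0.124, 0.368 and 0.590 FPKM in OVX-TPTD rats, 0.195, 0.293 and 0.630 FPKM in OVX-vehicle rats and 0.299, 0.440 and 1.30 FPKM in Sham-vehicle rats. The highest of these, 1.30 FPKM, was Sham-vehicle replicate 3, and the next Sham-vehicle rat had 0.478 FPKM. The log2 difference of OVX-vehicle from Sham-vehicle was −0.69 (SE 0.302, 95% interval −1.31 to −0.07; unadjusted p = 0.0312, adjusted p = 0.864 by edgeR; exact permutation p = 0.0491), and without that rat it was −0.35 (unadjusted p = 0.182 by edgeR; exact permutation p = 0.0987).

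Il1r1 (chr9:46997798-47035275, plus strand), the signalling receptor of interleukin-1, was at 2.62, 3.14 and 3.41 FPKM in OVX-TPTD rats, 2.52, 2.88 and 3.68 FPKM in OVX-vehicle rats and 2.51, 3.54 and 3.92 FPKM in Sham-vehicle rats. In 7 of 8 OVX-vehicle rats and in all 8 OVX-TPTD rats it was below the Sham-vehicle median, yet the Sham-vehicle group also held the lowest rat. The OVX-vehicle difference from Sham-vehicle was −0.21 (SE 0.0953, 95% interval −0.41 to −0.01; unadjusted p = 0.0363, adjusted p = 0.864 by edgeR) and the exact permutation p was 0.0928. It was −0.18 (unadjusted p = 0.0751 by edgeR) without Sham-vehicle replicate 3 and −0.20 (unadjusted p = 0.0579 by edgeR) without OVX-vehicle replicate 1. The OVX-TPTD difference from Sham-vehicle was −0.14 (95% interval −0.34 to 0.05).

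Il1b (chr3:121876259-121882637, minus strand), the ligand interleukin-1β, which macrophages make on activation, varied more between rats than any other tested member when all rats were kept. Its levels were 0.145, 0.525 and 1.31 FPKM in OVX-TPTD rats, 0.328, 0.491 and 1.05 FPKM in OVX-vehicle rats and 0.276, 0.552 and 3.87 FPKM in Sham-vehicle rats. The medians were close, and Sham-vehicle replicate 3, with 98 counts against 4 to 35 in the other 23 rats, lay far above the rest. The difference was −0.76 (95% interval −1.73 to 0.21) for OVX-vehicle against Sham-vehicle and 0.18 (−0.84 to 1.19) for OVX-TPTD against OVX-vehicle, so these data bound it only loosely. Without Sham-vehicle replicate 3 the difference of OVX-vehicle from Sham-vehicle turned to 0.09 (unadjusted p = 0.805 by edgeR), and that of OVX-TPTD from Sham-vehicle was 0.27, against −0.58 with it. The same rat was also highest for Il21r (1.62 FPKM, against 0.303 to 0.672 FPKM in the other Sham-vehicle rats) and Il10ra (2.87 FPKM, against 1.22 to 1.72 FPKM), receptor chains of interleukins 21 and 10 that leukocytes carry. Its macrophage markers, at 863 FPKM, were the highest of the 24 rats as well, and their part in these values was not tested.

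With all rats kept, the remaining high members differed by less than the spread between rats. Il34 was at 18.5, 21.6 and 23.5 FPKM in OVX-TPTD rats, 19.4, 22.5 and 25.1 FPKM in OVX-vehicle rats and 18, 20.1 and 25.3 FPKM in Sham-vehicle rats. The largest of its differences was 0.13 (95% interval −0.01 to 0.27; unadjusted p = 0.0626 by edgeR) in OVX-vehicle against Sham-vehicle. The Sham-vehicle rat at 25.3 FPKM was replicate 3. Without it the Sham-vehicle rats averaged 19.6 ± 1.10 FPKM (SD), against 22.4 ± 2.24 FPKM in OVX-vehicle rats, a gap larger than either SD. The edgeR differences of OVX-TPTD from OVX-vehicle were −0.03 (95% interval −0.11 to 0.06) for Il6st, −0.05 (−0.19 to 0.10) for Il11ra1, 0.06 (−0.04 to 0.17) for Il10rb and −0.07 (−0.19 to 0.05) for Il16. Those of OVX-vehicle from Sham-vehicle were −0.04 (−0.12 to 0.05) for Il6st, 0.06 (−0.09 to 0.20) for Il11ra1, 0.02 (−0.08 to 0.13) for Il10rb and 0.03 (−0.10 to 0.15) for Il16. For these 4 genes a change of 0.25 on the log2 scale in either direction lies outside each of the 8 intervals.

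Among the family leaders at lower levels the intervals were wider. Against OVX-vehicle, OVX-TPTD rats differed by 0.06 (95% interval −0.14 to 0.27) for Il17ra, 0.10 (−0.08 to 0.27) for Il1rap, 0.07 (−0.19 to 0.33) for Il3ra, 0.12 (−0.26 to 0.50) for Il15 and 0.09 (−0.44 to 0.63) for Il23a, by edgeR. OVX-vehicle against Sham-vehicle gave 0.03 (−0.18 to 0.24) for Il17ra, −0.01 (−0.19 to 0.16) for Il1rap, −0.13 (−0.39 to 0.13) for Il3ra, −0.09 (−0.47 to 0.30) for Il15 and −0.22 (−0.76 to 0.31) for Il23a. Il15, which supports lymphocyte survival, rested on 15 to 43 counts per rat.

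Il31ra (chr2:44335795-44404042, minus strand), which pairs with Osmr to form the interleukin-31 receptor of itch-sensing neurons in the mouse, was high but uneven. It was at 10.9, 18.9 and 20.7 FPKM in OVX-TPTD rats, 12.2, 15.6 and 21.8 FPKM in OVX-vehicle rats and 10.6, 19.2 and 23.4 FPKM in Sham-vehicle rats. Each group held rats near both ends of the range, and the differences were 0.15 (95% interval −0.17 to 0.46) for OVX-TPTD against OVX-vehicle, −0.06 (−0.38 to 0.25) for OVX-TPTD against Sham-vehicle and −0.21 (−0.53 to 0.10) for OVX-vehicle against Sham-vehicle. Osmr, no member, averaged 6.20 ± 1.07 FPKM in OVX-TPTD rats, 5.00 ± 0.535 FPKM in OVX-vehicle rats and 4.32 ± 0.801 FPKM in Sham-vehicle rats (SD, n = 8 each). Its difference was 0.31 for OVX-TPTD against OVX-vehicle (unadjusted p = 0.0095, adjusted p = 0.995 by edgeR) and 0.50 for OVX-TPTD against Sham-vehicle (adjusted p = 0.0848 by edgeR).

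The members also differed in their spread between rats. The biological coefficient of variation, edgeR's estimate of the spread between rats of a group beyond counting error, had a median of 15.9% over the 38 tested members, and 24 of the 38 were above the median of entries of like level, which was not tested. Il13ra1 was the lowest at 4.57%, with Il6st at 6.06%. Il31ra, at 21.1%, stood above 98.9% of 2176 entries of like level, whose median was 7.63%. Il13ra2, a decoy receptor for interleukin-13, had 47.7% and Il1b 59.0%, the value of Il1b being 37.4% without Sham-vehicle replicate 3. Il13ra2 was at 0.373, 0.924 and 2.76 FPKM in OVX-TPTD rats, 0.635, 0.691 and 1.32 FPKM in OVX-vehicle rats and 0.271, 0.778 and 1.70 FPKM in Sham-vehicle rats. The OVX-TPTD group held both low rats and 3 high ones, replicates 1, 2 and 5, and the difference from OVX-vehicle was 0.69 (95% interval −0.05 to 1.43; unadjusted p = 0.0677 by edgeR).

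The signalling genes downstream of these receptors were counted in lists, and none passed an adjusted p of 0.05 by edgeR in any comparison. Of 11 JAK and STAT genes, 8 were higher in OVX-TPTD than in OVX-vehicle rats with a median of 0.01, among them Stat4 by 0.68 at an unadjusted edgeR p of 0.0109. Without OVX-TPTD replicates 6 and 7, 4 of the 11 were higher and 7 lower, with a median of −0.02. In OVX-vehicle against Sham-vehicle, 10 of the 11 were lower with a median of −0.04. Of 15 genes of JAK-STAT inhibitors, 12 were lower in OVX-vehicle than in Sham-vehicle rats, and 9 without Sham-vehicle replicate 3. Socs2 and Cish, which encode feedback inhibitors of STAT signalling, had differences of −0.54 and −0.40 there (adjusted p = 0.380 and 0.625 by edgeR), and Cish had −0.49 in OVX-TPTD against Sham-vehicle (adjusted p = 0.0802 by edgeR). Of 14 tested genes known to be induced by interleukin-1 or interleukin-6, 10 were higher in OVX-TPTD than in Sham-vehicle rats, with a median of 0.16, and 6 had an unadjusted edgeR p under 0.05, where 15.1% of all entries passed. Of the 6, Icam1 was lower (−0.24) and 5 were higher, among them Cxcl10 (0.87, adjusted p = 0.222 by edgeR) and Ccl2 (0.40, adjusted p = 0.255 by edgeR). Cxcl10 is also induced by interferons. Without Sham-vehicle replicate 3, 12 of these 14 genes were higher in OVX-TPTD than in Sham-vehicle rats, with a median of 0.29. At an unadjusted edgeR p under 0.05 there were then 6 higher and 0 lower, where 19.98% of all entries passed. The 13 adaptor and kinase genes of the interleukin-1 and interleukin-17 receptors, the 10 NF-κB genes and the 7 genes of interleukin-1 and interleukin-18 processing had medians between −0.05 and 0.03 in the 3 comparisons. Without Sham-vehicle replicate 3 the median of the processing genes was 0.13 in OVX-vehicle against Sham-vehicle.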

How the data were processed

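Total RNA of the L4 and L5 DRG of 24 rats was sequenced by the authors as 1 stranded mRNA library per rat. The authors mapped the reads to the rn6 build with TopHat2 2.0.14 and deposited 1 table with an expected count and an FPKM value per entry and rat. The expected counts are estimates (86.4% were whole to within 0.001), and the deposited FPKM values are scaled to transcript length and mapped fragments; how reads of several positions were shared out, and whether strand was used, is not given in the sources used here. Gene coordinates are those of the table.

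Counts were rounded to whole numbers and fitted over all 24 rats with edgeR 4.0.16 (R 4.3.3; TMM scaling, its default filter on low counts, quasi-likelihood test, Benjamini-Hochberg adjustment over 12645 entries, threshold 0.05). Entries above 0 FPKM in all 24 rats were also tested by a two-sided exact permutation test of mean log2 FPKM with no pseudocount (smallest p possible 0.000155). DESeq2 1.42.0, limma 3.58.1 on log2(FPKM + 0.1) and log2(FPKM + 1), no filter, 2-group fits, a replicate block, another group for OVX-vehicle replicate 1 and leaving out each rat were alternatives. The fits were tested on simulated data. All 84 within-group pairs of rats differed beyond counting error, so each was counted as a separate replicate.

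The members and lists were chosen with earlier results of these data known. Named are members with an unadjusted p under 0.05 in either test, Il11 and Il2rg (which the study followed further), Il18, the 10 highest members and the highest of each family, and other members by level. The table holds no comparison columns, and 0 of its columns belonged to other samples.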

Additional observations from a re-analysis of the deposited data

Results flagged for a closer look

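In a group of 8 rats, a value was listed where the gap between the highest or lowest rat and its neighbour took up more of the group's range than Dixon's 95% critical value allows. Of 129 tests (43 members in 3 groups) 13 met this, or 10.1%. The share of about 1 in 20 that chance gives holds for independent, normally distributed values. FPKM was used without a log here and the tests share rats, so the 10.1% cannot be set against it. In all 13 it was the highest rat of the group that stood apart. Sham-vehicle replicate 3 accounted for 6 of the 13: Il1b (3.87 FPKM, next rat 0.809), Il21r (1.62, next 0.672), Il1rn (1.3, next 0.478), Il10ra (2.87, next 1.72), Il4r (5.15, next 4.21) and Il34 (25.3, next 21), all in FPKM. It was also the rat with the highest macrophage markers, and their part in these values was not tested.

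The other 7 were spread over rats and genes. Il33 was at 51.6 FPKM in OVX-vehicle replicate 8 (next rat 41.6) and Il18r1 at 0.331 FPKM in the same rat (next 0.199). Il16 was at 6.64 FPKM in OVX-TPTD replicate 2 (next 5.70) and at 6.7 FPKM in OVX-vehicle replicate 1 (next 6.0). Il1rl1 was at 1.34 FPKM in OVX-TPTD replicate 2 (next 0.935), Il13ra2 at 1.32 FPKM in OVX-vehicle replicate 5 (next 0.802) and Il27ra at 0.287 FPKM in Sham-vehicle replicate 8 (next 0.200).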

How the results depend on the processing

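The number of members with an adjusted p under 0.05 was 0 in each comparison under every alternative run (9 other settings, DESeq2 and limma included, 24 fits with 1 rat left out and 2 added after seeing the data). Of 114 member results (38 members in 3 comparisons) 38 changed sign in at least 1 of these, among them none of the 9 with an unadjusted edgeR p under 0.05 and 2 with a difference over 0.25 in size, both of Il1b against Sham-vehicle (0.27 in OVX-TPTD rats and 0.09 in OVX-vehicle rats without Sham-vehicle replicate 3). Counts at an unadjusted p in OVX-TPTD against OVX-vehicle, OVX-TPTD against Sham-vehicle and OVX-vehicle against Sham-vehicle were 2, 5 and 2 by edgeR and 5, 6 and 3 with no filter. Over all entries, 462, 1909 and 610 of 12645 passed by edgeR, and 640, 2078 and 767 of 15600 with no filter, where more members were tested. The replicate number as a block left 0 members with an adjusted p and gave 2, 3 and 4 unadjusted. With that block 517, 1989 and 659 of 12645 entries passed unadjusted. Same-numbered rats did not deviate together (correlations −0.0929 to 0.101). In 3 of 24 checks (8 rats of the first-named group in each of 3 pairs of groups) a rat correlated best with its own number. Sham-vehicle rats were only the second group in these checks, which showed no pairing by number.

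The permutation test passed 4, 5 and 3 members at p under 0.05. Restricted to the 24 members with a mean of at least 1 FPKM it passed 2 in OVX-TPTD against OVX-vehicle and 1 in OVX-vehicle against Sham-vehicle. Of 11380 entries at that level, 409 and 577 passed in these comparisons. With OVX-vehicle replicate 1 counted as Sham-vehicle it passed 5 in OVX-vehicle against Sham-vehicle, where 406 of 13024 entries passed. Without that rat and Sham-vehicle replicate 3 it passed 8 in OVX-TPTD against Sham-vehicle, where 2448 of 13024 entries passed (added after seeing the data). With 1 rat left out it passed 4 to 5, 3 to 8 and 1 to 5 members. Of the 13024 entries, 396 to 814, 1213 to 2644 and 502 to 1029 then passed. Over all entries, adjusted calls of 0, 4 and 1 by edgeR became 1, 40 and 7 by DESeq2. The cause of these moves was not tested. Member results below the unadjusted threshold stayed below it in 122 and lost it in 14 of the alternative fits, and in 262 and 79 of those with 1 rat left out. In the settings added after seeing the data, 26 stayed below it and 11 lost it. At 1 to 8 counts per rat, Il11 and Il12rb1 are limited by depth.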
